A study of Mus musculus with 36 samples.

Results

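Macrophages of epididymal white adipose tissue (eWAT) were followed through 10 genes, 3 that nearly all macrophages express and 7 that are used to recognize tissue-resident macrophages. The general genes were *Adgre1*, *Cd68* and *Csf1r*, and the resident genes were *Mrc1*, *Cd163*, *Lyve1*, *Timd4*, *Folr2*, *Mertk* and *Retnla*. Members were found by gene symbol, with earlier results of these data known, and each symbol matched 1 Ensembl gene, giving 10 of the 24750 genes in the table. All 10 passed the filter on low values and were tested among 17852 genes.

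RNA was sequenced from the eWAT of 36 male C57BL/6 mice in 12 groups of 3, which crossed 2 genotypes, 3 diets and the presence or absence of a ligature. WT mice were compared with homozygous CCL19-KI mice, a line bred separately from WT in which *Ccl19* was inserted at the *Adipoq* locus, so that adipocytes make the chemokine while endogenous *Adipoq* is left intact. From 6 weeks of age, mice ate a normal diet (ND), a 40% high-fat diet (40% HFD) or a 60% high-fat diet (60% HFD). In 18 of the 36, silk thread was tied around an upper molar on each side at 14 weeks of age for 2 weeks to induce periodontitis. All mice were 16 weeks old at collection, and lymph nodes were removed from the fat before RNA was extracted. Groups are called below by genotype, diet and ligature, and replicates are separate mice.

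Macrophages of fat are in part long-lived residents that lie along vessels, take up dying cells and scavenge haemoglobin and hyaluronan fragments, and in part descendants of blood monocytes that gather around dying adipocytes in obesity. Resident cells in many tissues carry the receptors LYVE1, FOLR2, TIM-4, CD163 and MERTK, whereas recruited cells that handle adipocyte lipid are known for genes such as *Trem2* and *Itgax*. Both kinds depend on signalling through the CSF1 receptor, the product of *Csf1r*.

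The deposited values are CPM, read counts scaled to library size, after the authors' normalization (normalized CPM), and whole read counts could be recovered from them. Libraries held between 11962228 and 21581595 reads, with a median of 15573273, and 1 read was worth 0.0472 to 0.0834 normalized CPM. A gene with no read could have a level of up to 0.142 to 0.250 normalized CPM, the value of 3 reads, counting error only. The least covered member was *Timd4*, with 26 to 133 reads in a library, and the other 9 members had at least 219 reads in every library. The tissue label was checked against its markers. The summed level of 6 adipocyte genes (*Plin1*, *Cidec*, *Fabp4*, *Lipe*, *Pnpla2* and *Car3*) was 9130 to 37300 normalized CPM, and that of 15 other macrophage genes was 718 to 3650, with *Lyz2* the most abundant. None of these 21 genes was at 0 in any library, and no member was.

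Gene positions are from GENCODE M21 on GRCm38. *Adgre1* spans chr17:57358691-57483527 on the plus strand, *Cd68* chr11:69664213-69666153 on the minus strand and *Csf1r* chr18:61100598-61132149 on the plus strand. Among resident genes, *Mrc1* lies at chr2:14229392-14332057, *Cd163* at chr6:124304656-124330527, *Timd4* at chr11:46810800-46844332, *Mertk* at chr2:128698956-128802894 and *Retnla* at chr16:48842551-48844461, all on the plus strand. *Lyve1* (chr7:110850607-110863239) and *Folr2* (chr7:101839988-101857194) are on the minus strand of the same chromosome. *Retnla* has the close relatives *Retnlb* and *Retnlg*, and *Folr2* has *Folr1*, so their read counts carry the uncertainty of reads shared between relatives.

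Levels of different genes were compared only per kilobase of exon. *Retnla*, which encodes the secreted protein RELM-alpha, was highest, with a median of 495 normalized CPM per kilobase, and it exceeded every other member in all 36 libraries. *Csf1r*, the receptor for CSF1 and IL-34, followed at 42.6 per kilobase, beside 42.2 for *Folr2*, which encodes folate receptor beta. These neighbours were not separated, since *Csf1r* was the higher of the pair in 17 of 36 libraries. *Mrc1*, the gene of the mannose receptor CD206, stood at 32.9 per kilobase and was above *Lyve1* in 26 libraries. *Lyve1* (26.2), *Cd68* (25.7), *Cd163* (25.7) and *Adgre1* (23.9) changed places from library to library. *Mertk*, a receptor for dying cells, had a median of 9.00 per kilobase and *Timd4*, the gene of the phosphatidylserine receptor TIM-4, 1.70. *Mertk* was above *Timd4* in 36 of 36 libraries.

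Promoter sequences, 300 bases around the start of the gene and mostly before it, were available from RefSeq on GRCm38.p6 for 7 members in 8 entries. They were searched on both strands for GAGGAA, the core letters bound by the myeloid factor PU.1, and for TGCTGA, letters shared by MAF recognition elements. GAGGAA stood in 28.3% and TGCTGA in 19.5% of 32851 promoters of the same length, and 5.36% held both. Among the 8 entries, GAGGAA was found in 3 (*Cd68*, *Mrc1* and *Retnla*) and TGCTGA in 4 (*Timd4*, both entries of *Folr2*, and *Retnla*). The sequences of *Cd68*, *Cd163* and *Mertk* are shown because these genes passed the test for diet in opposite directions, and that of *Mrc1* because its level followed that of *Csf1r* and not diet. They lie at chr11:69666121-69666420 (minus strand), chr6:124304401-124304700, chr2:128698665-128698964 and chr2:14229164-14229463 (plus strand). Capitals mark GAGGAA or its reverse complement. A match is a description of letters, not of a bound site, and its absence says only that the letters are not in this window.
Cd68: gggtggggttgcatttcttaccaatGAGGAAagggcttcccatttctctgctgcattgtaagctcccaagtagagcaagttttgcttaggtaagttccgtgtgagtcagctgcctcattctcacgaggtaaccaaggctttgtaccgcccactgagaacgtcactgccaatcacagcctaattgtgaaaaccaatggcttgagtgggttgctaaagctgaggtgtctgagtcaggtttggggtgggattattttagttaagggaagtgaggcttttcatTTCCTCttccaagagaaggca
Cd163: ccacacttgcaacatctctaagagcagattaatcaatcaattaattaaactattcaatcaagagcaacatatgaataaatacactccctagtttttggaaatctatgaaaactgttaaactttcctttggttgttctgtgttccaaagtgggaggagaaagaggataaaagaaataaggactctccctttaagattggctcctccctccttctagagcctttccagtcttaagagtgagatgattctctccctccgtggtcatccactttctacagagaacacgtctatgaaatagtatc
Mertk: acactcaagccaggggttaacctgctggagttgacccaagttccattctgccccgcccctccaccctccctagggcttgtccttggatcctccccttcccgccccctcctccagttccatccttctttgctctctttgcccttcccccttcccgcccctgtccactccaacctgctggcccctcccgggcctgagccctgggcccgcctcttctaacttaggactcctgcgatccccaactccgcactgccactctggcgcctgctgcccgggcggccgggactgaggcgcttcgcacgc
Mrc1: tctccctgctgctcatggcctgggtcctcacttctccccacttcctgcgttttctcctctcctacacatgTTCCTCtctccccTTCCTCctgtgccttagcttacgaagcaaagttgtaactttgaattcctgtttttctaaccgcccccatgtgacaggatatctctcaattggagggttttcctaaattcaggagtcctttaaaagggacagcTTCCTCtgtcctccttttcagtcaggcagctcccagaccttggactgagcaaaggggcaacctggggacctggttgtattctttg
The *Cd68* window held 2 matches and the *Mrc1* window 3, whereas the windows of *Cd163* and *Mertk* held neither motif.

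The first question was how diet was related to these genes. In mice fed a 60% HFD, the general genes *Cd68* and *Adgre1* were higher than in ND mice and the resident genes *Cd163*, *Lyve1* and *Mertk* were lower. *Csf1r*, *Mrc1* and *Folr2* were close to their ND levels. Of the 10 members, 5 were called with limma at an adjusted p below 0.05, 2 higher and 3 lower, beside 3315 of 17852 genes (18.6%). At an unadjusted p below 0.05 there were 6 members, beside 34.8% of genes. The median log2 fold change was -0.15 over the members and 0.01 over all genes tested. In bulk tissue, fewer cells of a type and less RNA per cell cannot be told apart. Whether values of 2 groups overlapped is described below for single members. Between genotypes, 8.97% to 30.7% of all genes tested did not overlap in a setting. No such share is given for diet or ligature, so non-overlap there is not a result particular to these members.

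**Figure D1:**
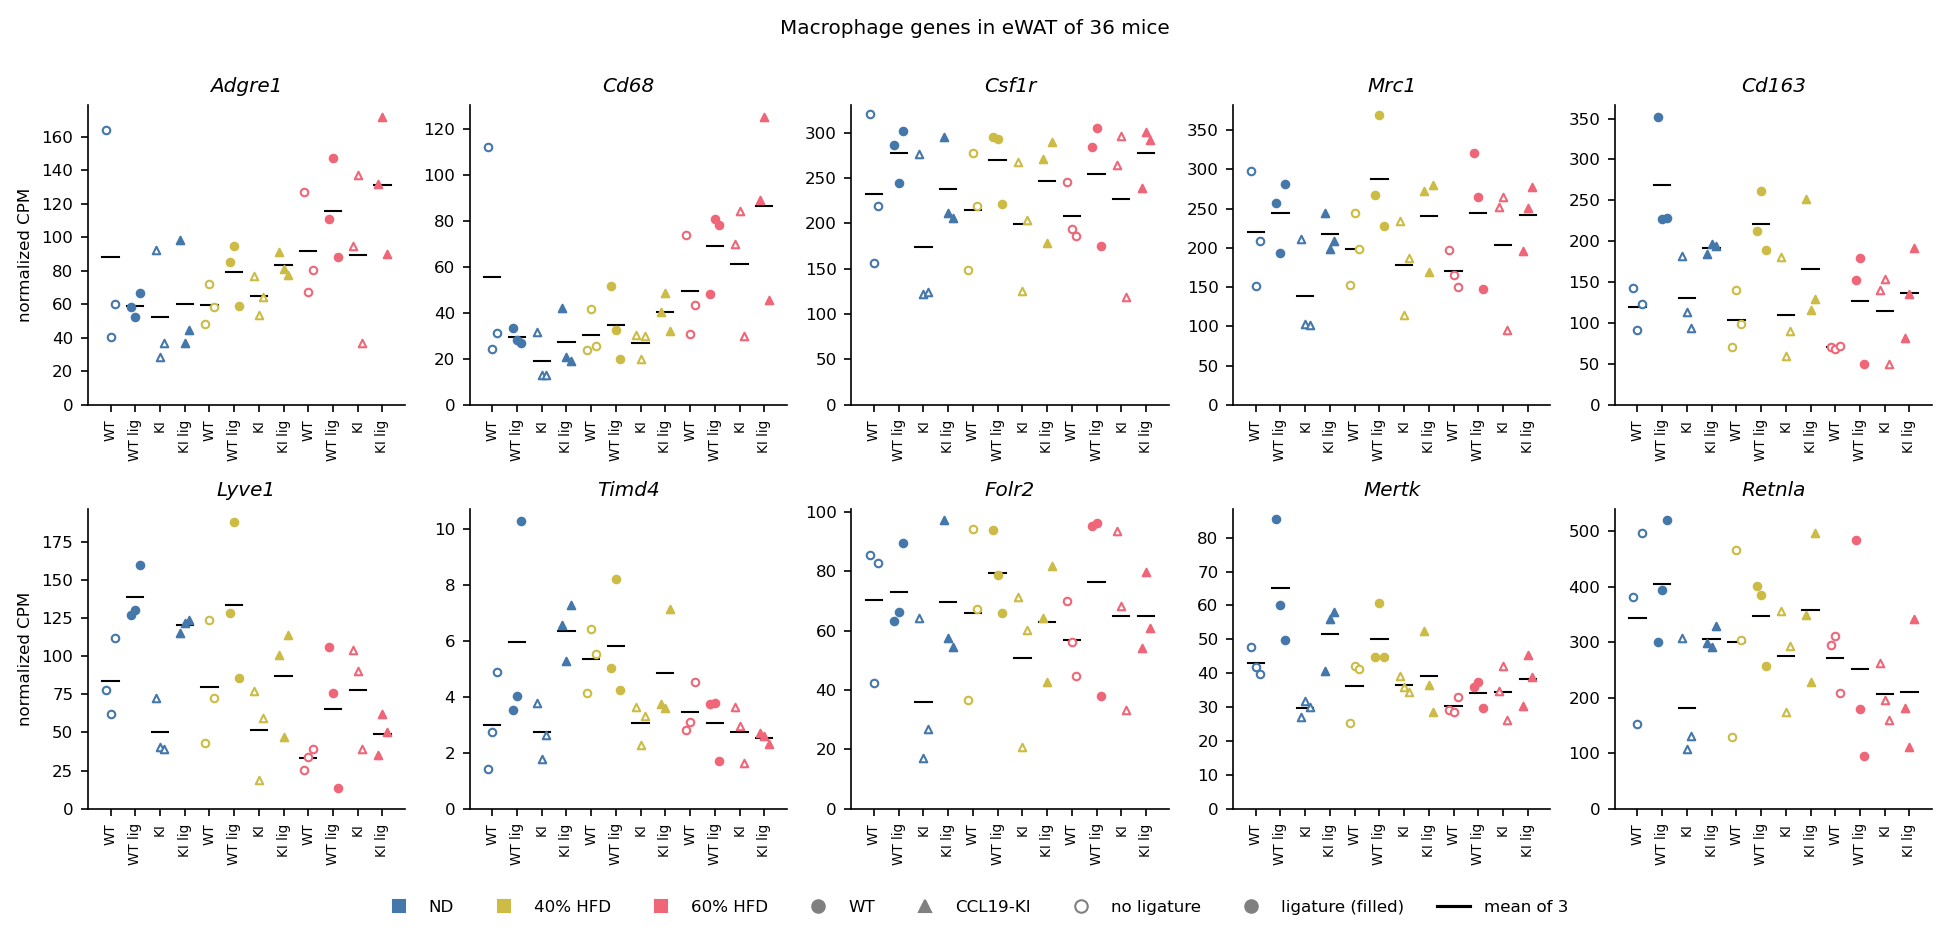
Normalized CPM of each of the 10 genes in every mouse (points, 3 per group) with group means (bars), by genotype, diet and ligature. *Cd68* ran from 13.0 to 125 and had its highest group mean, 86.8, in ligatured CCL19-KI mice on the 60% HFD, whereas *Lyve1* ran from 13.8 to 188 with its lowest group mean, 33.0, in unligatured WT mice on that diet.

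*Cd68* encodes macrosialin, a glycoprotein of lysosomes. In ND mice, *Cd68* was 112, 24.1 and 31.3 normalized CPM in unligatured WT, 33.3, 28.4 and 26.8 in ligatured WT, 31.7, 13.0 and 13.0 in unligatured CCL19-KI, and 42.0, 20.8 and 18.9 in ligatured CCL19-KI mice. *Cd68* on the 40% HFD was 24.0, 41.8 and 25.6 in unligatured WT, 51.8, 32.7 and 20.1 in ligatured WT, 30.4, 19.9 and 29.9 in unligatured CCL19-KI, and 40.2, 48.5 and 32.0 in ligatured CCL19-KI mice. *Cd68* on the 60% HFD was 74.0, 30.9 and 43.2 in unligatured WT, 48.3, 80.7 and 78.2 in ligatured WT, 69.9, 84.4 and 30.0 in unligatured CCL19-KI, and 89.2, 125 and 45.7 in ligatured CCL19-KI mice. Apart from 1 unligatured WT mouse at 112, no ND mouse was above 42.0, a level that 10 of the 12 mice on the 60% HFD exceeded. Mean log2 levels were higher on the 60% HFD than on ND in 4 of 4 settings of genotype and ligature, although in unligatured WT mice the means of normalized CPM were 55.7 ± 48.6 on ND and 49.4 ± 22.2 on the 60% HFD (SD, n = 3). Values did not overlap in ligatured WT and ligatured CCL19-KI mice. The log2 fold change over the 4 settings was 1.12 (SE 0.245, limma adjusted p = 0.00341). Ordered by mean, the ligatured CCL19-KI group on the 60% HFD was first and the unligatured CCL19-KI group on ND (19.2) was last, and all 11 neighbouring pairs in that order of 12 groups overlapped.

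*Adgre1* encodes F4/80, the adhesion receptor by which mouse macrophages are commonly stained. In ND mice, *Adgre1* was 164, 40.2 and 60.1 in unligatured WT, 58.3, 52.1 and 66.5 in ligatured WT, 92.1, 28.7 and 37.0 in unligatured CCL19-KI, and 98.1, 37.1 and 44.7 in ligatured CCL19-KI mice. *Adgre1* on the 60% HFD was 127, 67.5 and 80.7 in unligatured WT, 111, 147 and 88.5 in ligatured WT, 94.6, 137 and 36.9 in unligatured CCL19-KI, and 132, 172 and 90.1 in ligatured CCL19-KI mice. The median of 12 mice was 55.2 on ND, 74.5 on the 40% HFD and 103 on the 60% HFD. The mouse with 164 in the ND groups was the same one that was high for *Cd68*, and only in ligatured WT mice were the values on ND and on the 60% HFD apart. *Adgre1* rose by a log2 fold change of 0.79 (SE 0.230, limma adjusted p = 0.0200), and was higher in 4 of 4 settings.

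*Csf1r*, the third general gene, did not pass. Its levels over 12 mice were 122 to 321 normalized CPM on ND, 126 to 295 on the 40% HFD and 119 to 305 on the 60% HFD, with medians of 232, 245 and 255. The 3 ranges lay on top of each other, and the gene was higher in 2 of 4 settings and lower in the other 2.

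Among the resident genes, *Cd163* encodes the receptor that clears haemoglobin bound to haptoglobin. In ND mice, *Cd163* was 143, 91.8 and 123 in unligatured WT, 352, 227 and 229 in ligatured WT, 182, 114 and 94.1 in unligatured CCL19-KI, and 184, 197 and 194 in ligatured CCL19-KI mice. *Cd163* on the 40% HFD was 70.8, 140 and 98.8 in unligatured WT, 213, 262 and 189 in ligatured WT, 181, 59.3 and 90.0 in unligatured CCL19-KI, and 252, 116 and 129 in ligatured CCL19-KI mice. *Cd163* on the 60% HFD was 70.8, 68.6 and 71.9 in unligatured WT, 152, 179 and 49.6 in ligatured WT, 140, 154 and 49.7 in unligatured CCL19-KI, and 81.7, 135 and 192 in ligatured CCL19-KI mice. With that diet, 6 of 12 mice were below 91.8, the lowest ND value, and in WT mice the 2 diets did not overlap with or without ligature. *Cd163* was lower on the 60% HFD than on ND in 4 of 4 settings, with a log2 fold change of -0.71 (SE 0.224, limma adjusted p = 0.0298).

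*Lyve1* encodes a hyaluronan receptor of perivascular macrophages that is also made by lymphatic and liver sinusoidal endothelium. In ND mice, *Lyve1* was 78.1, 61.8 and 112 in unligatured WT, 127, 130 and 160 in ligatured WT, 72.5, 40.3 and 38.9 in unligatured CCL19-KI, and 115, 122 and 124 in ligatured CCL19-KI mice. *Lyve1* on the 40% HFD was 43.4, 124 and 72.4 in unligatured WT, 128, 188 and 85.4 in ligatured WT, 76.9, 18.6 and 59.3 in unligatured CCL19-KI, and 101, 46.7 and 114 in ligatured CCL19-KI mice. *Lyve1* on the 60% HFD was 25.6, 34.2 and 39.2 in unligatured WT, 106, 76.1 and 13.8 in ligatured WT, 104, 90.3 and 39.3 in unligatured CCL19-KI, and 34.9, 61.9 and 50.0 in ligatured CCL19-KI mice. In 3 of the 4 settings every mouse on the 60% HFD was below every ND mouse, with no share of all genes to set beside this. The exception was unligatured CCL19-KI mice, whose mean was 50.6 on ND and 77.8 on the 60% HFD. *Lyve1* had a log2 fold change of -0.89 (SE 0.277, limma adjusted p = 0.0278).

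*Mertk* encodes a receptor tyrosine kinase through which macrophages take up dying cells. In ND mice, *Mertk* was 47.8, 41.7 and 39.8 in unligatured WT, 85.6, 60.1 and 49.9 in ligatured WT, 27.1, 31.9 and 30.0 in unligatured CCL19-KI, and 40.8, 55.9 and 58.0 in ligatured CCL19-KI mice. *Mertk* on the 60% HFD was 29.0, 28.6 and 33.1 in unligatured WT, 36.0, 37.3 and 29.6 in ligatured WT, 34.9, 42.2 and 26.3 in unligatured CCL19-KI, and 30.4, 45.5 and 38.9 in ligatured CCL19-KI mice. WT mice on the 60% HFD were below all WT mice on ND of the same ligature status, and unligatured CCL19-KI mice again went the other way, with means of 29.7 and 34.5. On the 40% HFD, *Mertk* lay between 25.3 and 60.6 with a median of 40.3, between the medians of 44.7 on ND and 34.0 on the 60% HFD. *Mertk* had a log2 fold change of -0.40 between the 60% HFD and ND (SE 0.111, limma adjusted p = 0.0144).

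The other 4 resident genes were not called for the 60% HFD against ND. *Timd4* had medians of 3.91 on ND, 4.19 on the 40% HFD and 2.89 on the 60% HFD, and a log2 fold change of -0.38 (SE 0.170, limma adjusted p = 0.112). No mouse on the 60% HFD was above 4.53, whereas ND mice reached 10.3 and mice on the 40% HFD 8.22. *Mrc1* had medians of 209, 231 and 224 and *Folr2* 63.7, 66.7 and 64.7 in the same order of diets. *Retnla*, known for its induction by IL-4 and IL-13, ran from 107 to 520 on ND, 130 to 498 on the 40% HFD and 94.5 to 485 on the 60% HFD, with medians of 304, 326 and 202.

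How firmly these 5 calls stood differed. Without replicate 1 of the ligatured WT mice on ND, *Cd163* had an adjusted p of 0.0560, and without replicate 3 of the ligatured WT mice on the 60% HFD it was 0.0591, leaving 4 calls each. Without replicate 3 of the unligatured CCL19-KI mice on the 60% HFD, *Cd163* (0.0555) and *Lyve1* (0.0506) missed the threshold, and likewise without replicate 1 of the ligatured CCL19-KI mice on that diet (0.0629 and 0.0536), leaving 3 calls. Without replicate 1 of the unligatured WT mice on ND, *Timd4* was called as well (-0.46, adjusted p = 0.0499), giving 6. *Cd68*, *Adgre1* and *Mertk* were called in all 36 fits that left out 1 mouse. The edgeR quasi-likelihood test on recovered reads called 4 of the 5, beside 18.0% of all genes, with *Cd163* at an adjusted p of 0.0501. With the mean log2 level of 8 hepatocyte genes as a covariate, 1 member was called, *Cd68* (0.97, adjusted p = 0.0386), and *Adgre1* (0.70, 0.121), *Cd163* (-0.54, 0.217), *Lyve1* (-0.58, 0.281) and *Mertk* (-0.38, 0.0762) kept their direction without passing.

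**Figure D2:**
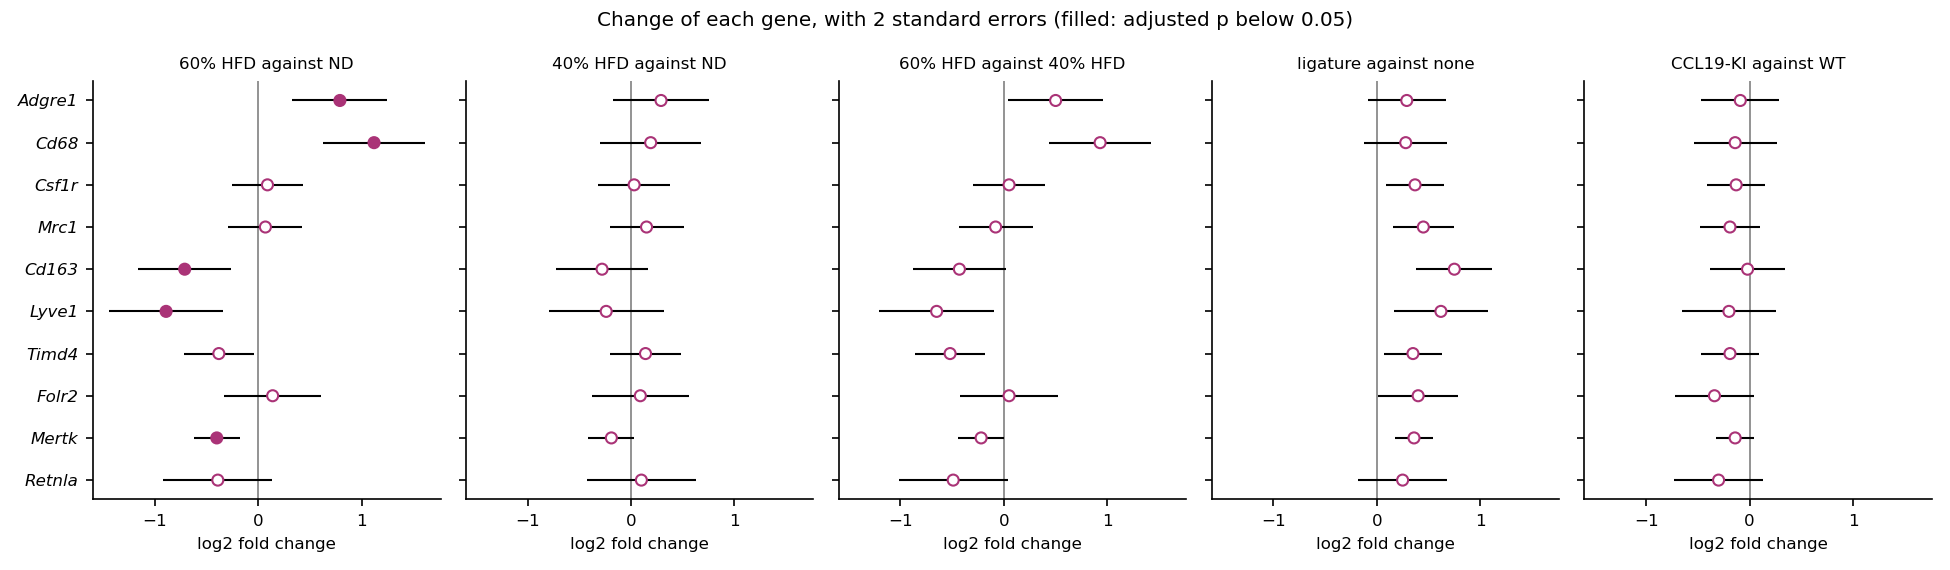
Log2 fold changes of the 10 genes (points) with 2 SE on each side (bars) for the 60% HFD against ND, the 40% HFD against ND, the ligature against none and CCL19-KI against WT, filled where the limma adjusted p was below 0.05. Filled points are found only for the 60% HFD against ND, where *Cd68* was at 1.12 and *Lyve1* at -0.89, and in the ligature comparison all 10 points were above 0.

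For the 40% HFD against ND, which used the same ND mice, limma called 0 of the 10 members, beside 1645 of all genes (9.21%), and edgeR called 0. At an unadjusted p below 0.05 there were 0 members, beside 26.5% of genes. The median log2 fold change was 0.10 over the members and -0.02 over all genes. *Cd163* and *Lyve1* were lower than on ND in 4 of 4 settings and *Mertk* in 3, whereas the resident genes *Mrc1* and *Timd4* were higher in 3. *Cd68* and *Adgre1* were also higher in 3, and *Csf1r*, *Folr2* and *Retnla* were higher in 2 and lower in 2.

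The high-fat diets were also set against each other. *Cd68* and *Adgre1* were higher on the 60% than on the 40% HFD in 4 of 4 settings, and *Timd4* and *Mertk* were lower in 4 of 4. limma called 0 of 10 members, beside 133 genes (0.745%), and edgeR called 0. At an unadjusted p below 0.05 there were 4 members, beside 13.2% of genes. *Cd68* had a log2 fold change of 0.93 (SE 0.245, limma adjusted p = 0.0659) and *Timd4* of -0.52 (SE 0.170, limma adjusted p = 0.150). *Cd68* was called without replicate 1 of the unligatured WT mice on ND (adjusted p = 0.0240), replicate 1 of the ligatured WT mice on the 40% HFD (0.0443), replicate 3 of the unligatured CCL19-KI mice on the 60% HFD (0.0314) or replicate 3 of the ligatured CCL19-KI mice on that diet (0.0429), and when only the groups on these 2 diets were fitted (0.0321).

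Because *Cd68* and *Cd163* passed in opposite directions, their ratio in each mouse was taken, a description chosen after the values were seen and given no test. In ND mice, *Cd163* over *Cd68* in normalized CPM was 1.28, 3.81 and 3.93 in unligatured WT, 10.6, 7.98 and 8.56 in ligatured WT, 5.74, 8.83 and 7.22 in unligatured CCL19-KI, and 4.39, 9.45 and 10.3 in ligatured CCL19-KI mice. On the 40% HFD the ratio was 2.95, 3.36 and 3.86 in unligatured WT, 4.12, 8.02 and 9.41 in ligatured WT, 5.96, 2.99 and 3.01 in unligatured CCL19-KI, and 6.28, 2.39 and 4.03 in ligatured CCL19-KI mice. On the 60% HFD the ratio was 0.957, 2.22 and 1.66 in unligatured WT, 3.15, 2.22 and 0.634 in ligatured WT, 2.01, 1.82 and 1.66 in unligatured CCL19-KI, and 0.916, 1.08 and 4.20 in ligatured CCL19-KI mice. The median was 7.60 on ND, 3.94 on the 40% HFD and 1.74 on the 60% HFD, and 10 of 12 mice on the 60% HFD but 1 ND mouse were below 3. These figures compare mice and are not ratios of molecules, since the genes differ in length. The mean log2 level of the 7 resident genes minus that of the 3 general genes had medians of 0.07 on ND, -0.18 on the 40% HFD and -0.94 on the 60% HFD. All 12 mice on the 60% HFD lay between -1.75 and -0.39, a range that held 2 of the 12 ND mice.

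**Figure D3:**
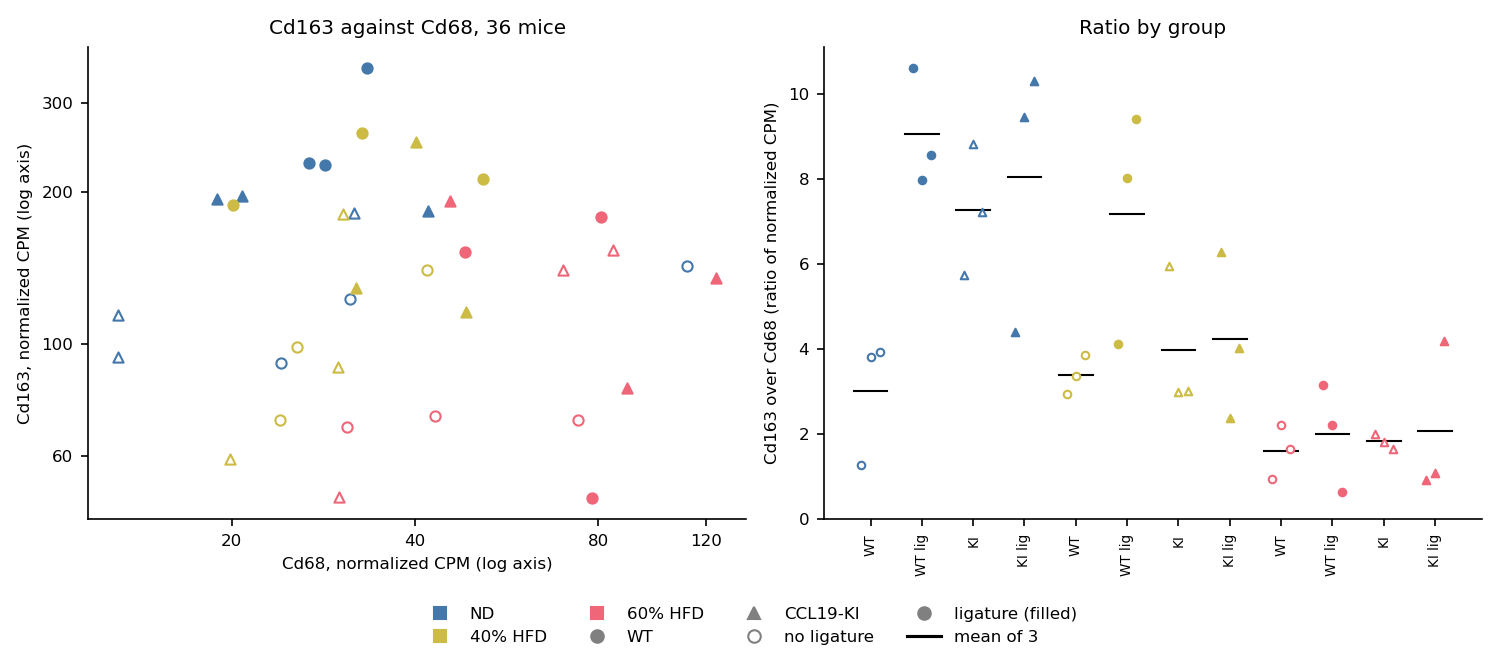
*Cd163* against *Cd68* in normalized CPM for each of 36 mice, both axes logarithmic, with colour for diet, shape for genotype and filled symbols for ligature. Mice on the 60% HFD lie to the lower right, with *Cd163* over *Cd68* between 0.634 and 4.20, a range that also holds 8 of 12 mice on the 40% HFD and the 3 unligatured WT mice on ND (1.28, 3.81 and 3.93).

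The second question was whether ligatures around teeth were accompanied by differences in the macrophage genes of distant fat. Averaged over settings, the log2 difference was above 0 for all 10 members and largest for *Cd163*, and the resident genes *Cd163*, *Mertk* and *Mrc1* were higher in 6 of 6 genotype and diet settings. None of these differences passed in limma, which called 0 of 10 members at an adjusted p below 0.05, beside 58 genes (0.325%), and edgeR called 1, *Mertk* (0.41, adjusted p = 0.0489). At an unadjusted p below 0.05 there were 7 members by limma and 6 by edgeR, beside 16.2% and 18.4% of all genes, and edgeR called 0.532% of all genes at an adjusted p below 0.05. The median log2 difference was 0.36 over the members and -0.02 over all genes.

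*Cd163* values, given above by mouse, had a median of 191 in 18 ligatured mice (49.6 to 352) and 96.4 in 18 unligatured mice (49.7 to 182). Ligatured and unligatured mice did not overlap in WT on ND, CCL19-KI on ND and WT on the 40% HFD, and overlapped in the other 3 settings. The share of all genes without overlap by ligature is not given. The log2 difference was 0.75 (SE 0.183, limma adjusted p = 0.0685). *Mertk* had medians of 44.8 with and 34.6 without ligature and was apart in the same 3 settings, with a log2 difference of 0.36 (SE 0.0905, limma adjusted p = 0.0726). *Lyve1* had medians of 110 and 60.6 and a log2 difference of 0.62 (SE 0.226, limma adjusted p = 0.190), with CCL19-KI mice on the 60% HFD going the other way (means of 48.9 with and 77.8 without ligature). *Mrc1* had medians of 254 and 192 and a log2 difference of 0.45 (SE 0.146, limma adjusted p = 0.140). *Csf1r* was also higher in 6 of 6 settings, with medians of 285 and 211, as was *Folr2*, with 66.2 and 62.2. *Cd68* and *Adgre1* were higher in 5 of 6, the exception for each being WT mice on ND, where replicate 1 of the unligatured group held the 112 and 164 given above. *Timd4* and *Retnla* were higher in 4 of 6 settings and lower with the ligature in both genotypes on the 60% HFD, with log2 differences of -0.16 in WT and -0.04 in CCL19-KI mice for *Timd4* and of -0.40 and -0.09 for *Retnla*.

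Single mice decided on which side of the threshold 2 of these genes lay. *Cd163* was called without replicate 3 of the ligatured WT mice on ND (adjusted p = 0.0480), replicate 1 of the unligatured CCL19-KI mice on ND (0.0431), replicate 2 of the unligatured WT mice on the 40% HFD (0.0371) or replicate 1 of the unligatured CCL19-KI mice on the 40% HFD (0.0282). The same held without replicate 3 of the ligatured WT mice (0.0219), replicate 1 (0.0408) or replicate 2 (0.0326) of the unligatured CCL19-KI mice on the 60% HFD. *Mertk* was called without replicate 3 of the ligatured WT mice on ND (0.0328), replicate 1 of the ligatured CCL19-KI mice on ND (0.0490), replicate 2 of the unligatured WT mice on the 40% HFD (0.0400) or replicate 2 of the unligatured CCL19-KI mice on the 60% HFD (0.0347). These 8 fits called 65 to 272 of all genes, and in the other 28 of 36 such fits 0 members were called. With the hepatocyte covariate, both *Cd163* (0.78, adjusted p = 0.0353) and *Mertk* (0.37, 0.0453) were called, in a fit that called 240 genes in place of 58.

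The third question was whether the fat of CCL19-KI mice, whose adipocytes make CCL19, differed from WT in these genes. Averaged over diet and ligature, limma called 0 of 10 members, beside 82 genes (0.459%), and edgeR called 0. At an unadjusted p below 0.05 there were 0 members, beside 16.9% of genes. All 10 members had a log2 difference below 0, with a median of -0.17 beside -0.02 over all genes. *Retnla* was lower in CCL19-KI mice on ND (log2 differences of -0.91 without and -0.37 with the ligature) and on the 60% HFD (-0.40 and -0.09), while on the 40% HFD the genotypes were alike (-0.01 and 0.00), and its values overlapped in all 6 settings.

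Within the 6 settings, limma called 0 of 10 members everywhere, as did edgeR, while the background differed widely. In unligatured ND mice, 2955 genes were called (16.6%), and 3 members had an unadjusted p below 0.05, beside 33.0% of genes. The median over the members there was -0.68, beside -0.10 over all genes. *Cd68*, with the 112, 24.1 and 31.3 of WT against 31.7, 13.0 and 13.0 of CCL19-KI mice, had a log2 difference of -1.28 (SE 0.490, limma adjusted p = 0.0709). *Folr2* was 85.5, 42.5 and 82.8 in these WT and 64.3, 17.2 and 26.8 in these CCL19-KI mice, a log2 difference of -1.09 (SE 0.473, limma adjusted p = 0.110). *Mertk* was 47.8, 41.7 and 39.8 against 27.1, 31.9 and 30.0, with a log2 difference of -0.52 (SE 0.222, limma adjusted p = 0.101), and was the 1 member of 10 without overlap, beside 28.1% of all genes tested. Single mice weighed heavily in this setting. Without replicate 1 of the CCL19-KI mice, *Cd68* (-1.69, adjusted p = 0.0198), *Folr2* (-1.60, 0.0169) and *Mrc1* were called, in a fit that called 4829 of the 17852 genes, and without replicate 2 of the WT mice *Cd68* was (-1.70, 0.0310). Without replicate 1 of the WT mice the log2 difference of *Cd68* was -0.62 (adjusted p = 0.399), and without replicate 2 of the CCL19-KI mice that of *Folr2* was -0.68 (0.434). Summed hepatocyte markers stood at 12.6, 15.6 and 14.6 in these WT mice and at 550, 18800 and 21900 in these CCL19-KI mice, with 8 of 8 genes called higher by limma and by edgeR. Summed adipocyte markers, with *Car3* the most abundant and no gene at 0, were 21400, 19400 and 37300 in these WT and 22100, 11300 and 9130 in these CCL19-KI mice, and 2 of 6 were called lower, *Plin1* (-2.19, SE 0.440, limma adjusted p = 0.00444) and *Lipe* (-1.63, SE 0.383, limma adjusted p = 0.00881). Of the other macrophage genes, 2 of 15 general ones (*Itgam* and *Fcer1g*) and 1 of 10 resident ones (*Cbr2*) were called lower by limma, and edgeR called 0 of 15 and 1 of 10. Single genes of further lists were called by limma too. *Gata6* (1.03, peritoneal macrophage) and *Wt1* (1.37, mesothelium) were higher, and *Fabp5* (-1.68, lipid-associated) and *Hmox1* (-1.02, signalling) were lower. edgeR called 1 gene in each of these lists, 2 of 4 Kupffer cell, 2 of 6 kidney tubule, 1 of 4 liver sinusoidal and 1 of 5 skeletal muscle genes. The part of the adipocyte list and of these further lists in the differences of the members was not tested. With the hepatocyte covariate 153 genes were called in place of 2955 (277 without replicate 2 of the CCL19-KI mice), and the log2 difference was -1.65 for *Cd68* (adjusted p = 0.167), -0.71 for *Folr2* (0.557) and -0.48 for *Mertk* (0.392).

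In unligatured mice on the 60% HFD, 2998 genes were called between genotypes (16.8%), and 0 members reached an unadjusted p below 0.05, beside 31.7% of genes. That count of genes fell to 535 in 1 of the fits that left out 1 mouse and to 61 with the hepatocyte covariate. *Lyve1* was 25.6, 34.2 and 39.2 in WT and 104, 90.3 and 39.3 in CCL19-KI mice. All 3 CCL19-KI mice were above all 3 WT mice, 1 of them by a margin of the last digit shown, and the log2 difference was 1.12 (SE 0.555, limma adjusted p = 0.165). Here summed hepatocyte markers were higher in WT mice (8030, 23700 and 33800) than in CCL19-KI mice (650, 1270 and 10.9), and all 8 genes were called lower by limma and 1 by edgeR. Markers of the epididymis were at 290, 5180 and 9550 in these CCL19-KI mice and below 1 in the WT mice, and 2 of the 3 tested were called higher. Also called were 2 of 4 Kupffer cell genes, *Clec4f* (-3.52, SE 0.983, limma adjusted p = 0.0195) and *Cd5l* (-2.19, SE 0.744, limma adjusted p = 0.0434), 2 of 6 kidney tubule genes, *Kap* (-5.46) and *Slc34a1* (-4.65), and 1 of 6 monocyte genes, *Plac8* (3.84). The mesothelial gene *Krt19* (2.00, SE 0.676, limma adjusted p = 0.0424) was called higher, and edgeR called 1 of 5 mesothelial genes. *Cd9* (1.10) of the lipid-associated list and *Tyro3* (1.71) and *Il4ra* (0.86) of the signalling list, both described below, were called higher by limma. Kidney markers summed to 215, 257 and 213 in these WT and 152, 69.1 and 95.7 in these CCL19-KI mice, and Kupffer cell sums are given below. The part of the Kupffer cell, kidney, monocyte, mesothelial, lipid-associated and signalling lists in the *Lyve1* values was not tested. With the hepatocyte covariate the log2 difference of *Lyve1* was 0.55 (SE 0.640, limma adjusted p = 0.694), and with the epididymis covariate, chosen after seeing the data, it was 1.10 (SE 0.667, limma adjusted p = 0.381).

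In the other 4 settings few genes were called at all. Ligatured ND mice had 184 called genes (1.03%), with 0 members at an unadjusted p below 0.05 beside 12.6% of genes. Ligatured mice on the 40% HFD and on the 60% HFD had 2 called genes each (0.0112%), again with 0 members at an unadjusted p below 0.05, beside 3.18% and 2.48% of genes. Unligatured mice on the 40% HFD had 1 called gene (0.00560%), and 0 members beside 6.64% of genes at an unadjusted p below 0.05.

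The difference of the genotype effect between diets was tested directly. For the 40% HFD minus ND, limma called 0 genes (0%), and 0 members had an unadjusted p below 0.05, beside 11.0% of genes. For the 60% HFD minus ND, 85 genes were called (0.476%) and 0 members, while 1 member, *Mertk*, had an unadjusted p below 0.05, beside 22.3% of genes. *Mertk* was 0.57 higher on the log2 scale in that difference (SE 0.222, limma adjusted p = 0.136), its values being lower in CCL19-KI than in WT mice on ND and higher on the 60% HFD. edgeR called 0 members in both.

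Genes that signal to macrophages or act downstream of those signals were taken as a list of 16, of which 13 were tested, the others being *Il4*, *Il13* and *Il10*. For the 60% HFD against ND, 3 of 13 were called, 2 higher and 1 lower, beside 18.6% of all genes, and the median log2 fold change was -0.07. The ligands of the CSF1 receptor were not called. *Csf1* had medians of 58.8 normalized CPM on ND and 50.4 on the 60% HFD, and *Il34* of 8.94 and 7.86. The ligands of MERTK went apart without passing, *Gas6* with medians of 424 and 294 and *Pros1* with 67.3 and 79.1. *Il33*, an alarmin of stromal cells, ran from 20.8 to 86.1 with a median of 46.8 on ND, and from 4.41 to 72.2 with a median of 19.0 on the 60% HFD, a log2 fold change of -1.11 (SE 0.251, limma adjusted p = 0.00409). *Stat6*, which carries the IL-4 signal that induces *Retnla*, had medians of 101 and 126 and a log2 fold change of 0.33 (SE 0.0662, limma adjusted p = 0.00197). *Hmox1*, the haem oxygenase that breaks down haem taken up through CD163, had medians of 32.4 and 57.3 and rose by 0.67 (SE 0.167, limma adjusted p = 0.00798), opposite in sign to *Cd163*. The transcription factor gene *Maf*, not called, had medians of 112 and 99.7. The number called was 3 to 6 over the fits that left out 1 mouse, reaching 6 without replicate 1 of the unligatured WT mice on ND or replicate 3 of the unligatured CCL19-KI mice on the 60% HFD, and was 2 with the hepatocyte covariate.

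Other macrophage genes showed how the members compared with their kin. Of 15 other general genes, 2 were called for the 60% HFD against ND, both higher, beside 18.6% of all genes, with a list median of 0.34, and the number was 1 by edgeR and 1 to 5 over all settings. *Ctss*, the gene of a lysosomal cathepsin, had medians of 67.1 on ND and 180 on the 60% HFD, and *Tyrobp*, the signalling adaptor of TREM2, 44.6 and 102. Over the fits that left out 1 mouse, 1 gene of this list was called in 13 fits, 2 in 15, 3 in 4 and 5 in 4. The 4 fits with 5 calls lacked replicate 1 of the unligatured WT, unligatured CCL19-KI or ligatured CCL19-KI mice on ND, or replicate 3 of the unligatured CCL19-KI mice on the 60% HFD. Of 10 other resident genes, among them *Cbr2*, *F13a1*, *Stab1* and *Pf4*, limma and edgeR called 0, with 0 at an unadjusted p below 0.05 and a list median of -0.19. In the list of 13 lipid-associated genes, 10 were called, all higher, with a median of 1.52. Among these, the elastase gene *Mmp12* had medians of 4.80 on ND and 66.3 on the 60% HFD, the proton pump gene *Atp6v0d2* 2.22 and 51.0, the integrin gene *Itgax* 5.27 and 26.4, and *Gpnmb* 31.4 and 160. For the ligature, where all 10 members were above 0, limma and edgeR called 0 of 15 other general, 0 of 10 other resident and 0 of 13 lipid-associated genes, with list medians of 0.24, 0.28 and 0.20 and with 4, 3 and 1 genes at an unadjusted p below 0.05 by limma. In the same comparison all 6 adipocyte genes were above 0 (median 0.44), and limma and edgeR called 0 of 6 adipocyte, 0 of 8 hepatocyte and 0 of 4 neutrophil genes, with 4, 0 and 1 at an unadjusted p below 0.05 by limma and 5, 3 and 3 by edgeR.

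**Figure D4:**
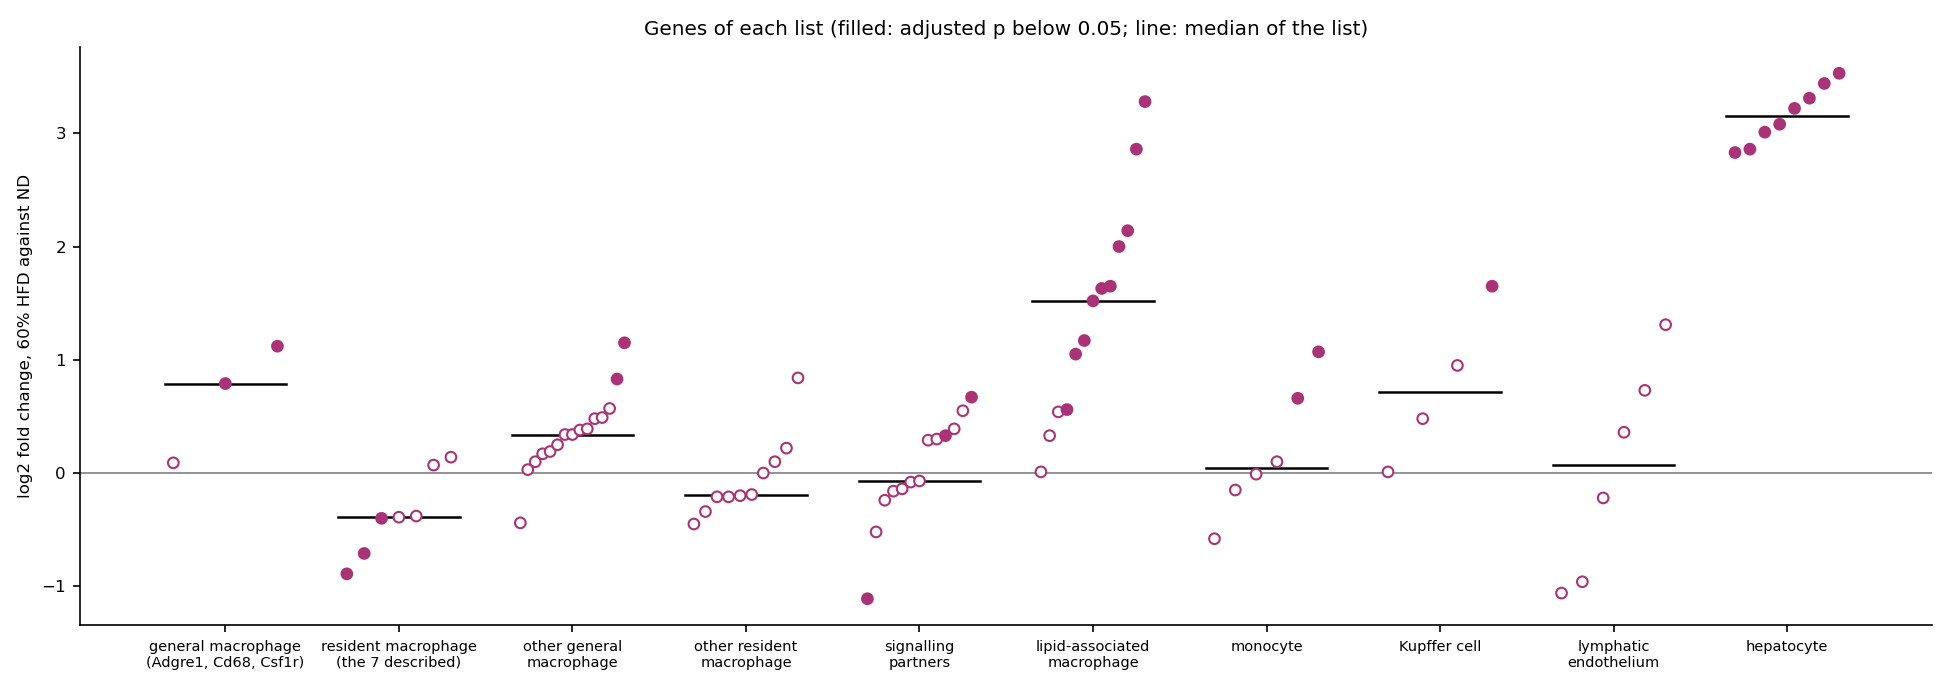
Log2 fold change of each tested gene (points) and list median (bars) for the 60% HFD against ND, filled where the limma adjusted p was below 0.05. The lists are of macrophage, signalling, monocyte, Kupffer cell, lymphatic endothelial and hepatocyte genes. List medians were -0.39 in the 7 resident genes, 0.79 in the 3 general genes, 1.52 in the 13 lipid-associated genes and 3.15 in the 8 hepatocyte genes.

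Across the 36 libraries the members formed pairs of very different likeness. Pearson r of log2 levels over the 45 pairs ran from -0.25 (*Cd68* with *Timd4*) to 0.95 (*Csf1r* with *Mrc1*), with a median of 0.57. These are descriptions over 36 libraries that share diets, genotypes and tissue composition. *Adgre1* with *Cd68* reached 0.91 and *Cd163* with *Lyve1* 0.85. The lipid-associated list was at 0.85 with *Cd68* and 0.80 with *Adgre1*, at 0.29 with *Csf1r*, and at -0.39 with *Lyve1* and -0.46 with *Timd4*. Taken over deviations from group means, r was 0.82 for *Cd68* and 0.72 for *Adgre1* but -0.10 for *Lyve1* and -0.20 for *Timd4*, that of *Mertk* went from -0.18 to 0.30 and that of *Cd163* from -0.24 to 0.12, and r of *Cd68* with *Timd4* was -0.02. The adipocyte list was closest to *Retnla*, at 0.67.

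For each member, the 3 genes most like it over the 36 libraries were taken from all genes tested outside the members. *Adgre1* was followed by *C3ar1* (r = 0.95), *Nckap1l* (0.95) and *Tlr8* (0.94), and *Cd68* by *Pik3r5* (0.94), *Ctss* (0.94) and *C3ar1* (0.93). Outside the members, *Csf1r* was closest to the complement gene *C1qc* (0.94), *Pld4* (0.91) and *C1qb* (0.91), and *Folr2* to *C1qc* (0.94), *C1qa* (0.94) and *Cd248* (0.92). *Mrc1*, apart from its r of 0.95 with *Csf1r*, was closest outside the members to *Slc9a9* (0.91), *Serpinb8* (0.89) and *C1qc* (0.89). *Cd163* was closest to *Cd14* (0.87), *Ms4a4a* (0.87) and *Dennd2a* (0.86), and *Lyve1* to *Alox5* (0.89), *Axl* (0.85) and *Fcna* (0.85). *Timd4* was closest to the chemokine gene *Ccl24* (0.76), *Fcna* (0.75) and *Zeb1* (0.74). *Mertk* was closest to *Zbtb16* (0.85), *Cblb* (0.81) and *Ms4a4a* (0.80), and *Retnla* to the lectin gene *Mgl2* (0.86), *Krt80* (0.81) and *Ctsc* (0.81). Taken over deviations from group means, r of these pairs ran from 0.61 (*Mertk* with *Cblb*) to 0.96 (*Folr2* with *C1qa* and with *Cd248*). It fell for *Mertk* with *Zbtb16* (0.74) and *Ms4a4a* (0.71) and for *Timd4* with *Fcna* (0.63), and rose for *Retnla* with *Mgl2* (0.94).

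In 4 of 12 groups 1 replicate was highest or lowest for all 10 members, and the other 8 groups were mixed. In unligatured WT mice on the 40% HFD, replicate 2 was highest and replicate 1 lowest for 10 of 10 genes. In unligatured CCL19-KI mice on that diet replicate 1 was highest for 10 of 10, and in ligatured WT mice replicate 3 was lowest for 10 of 10. Replicate 3 of the unligatured CCL19-KI mice on the 60% HFD was also lowest for 10 of 10, and its library held the highest sum of epididymis markers, 9550 normalized CPM, of which *Crisp1* made 9540. Replicate 1 of the unligatured WT mice on ND, the mouse with high *Cd68*, was the highest of its group for 7 members and had the largest sum of the other general macrophage genes, 3650.

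Hepatocyte marker RNA was found in all 36 libraries, was high in part of them and differed between diets. In unligatured CCL19-KI mice the mean summed level was lower on the 60% HFD (644) than on ND (13800), opposite to the other settings. All 8 hepatocyte genes were called higher on the 60% HFD than on ND (7 by edgeR), with *Alb* the most abundant (5.55 to 26900 normalized CPM). All 8 were likewise called for the 40% HFD against ND, with a list median of 4.04 beside 3.15 for the 60% HFD, as were 4 of 4 liver sinusoidal and 2 of 4 Kupffer cell genes. In ND mice, the summed hepatocyte level was 12.6, 15.6 and 14.6 in unligatured WT, 6450, 7370 and 995 in ligatured WT, 550, 18800 and 21900 in unligatured CCL19-KI, and 5850, 9.58 and 13.6 in ligatured CCL19-KI mice. With the 40% HFD, the sum was 25400, 7290 and 28400 in unligatured WT, 6300, 399 and 21100 in ligatured WT, 5500, 33300 and 19700 in unligatured CCL19-KI, and 7800, 36100 and 2440 in ligatured CCL19-KI mice. With the 60% HFD, the sum was 8030, 23700 and 33800 in unligatured WT, 13800, 10500 and 32400 in ligatured WT, 650, 1270 and 10.9 in unligatured CCL19-KI, and 18300, 15500 and 1920 in ligatured CCL19-KI mice. *Ttr*, *Fga* and *Fgb* were at 0 in 1 library each and *Fgg* in 2. Across libraries, r of this list's mean log2 level with the members ran from -0.41 (*Lyve1*) to 0.16 (*Adgre1*).

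Marker lists of other tissues and cells also held called genes for the 60% HFD against ND, a comparison that called 18.6% of all genes. Of 6 monocyte genes, 2 were called higher, *Ccl2* (1.07, SE 0.264, limma adjusted p = 0.00784) and *Chil3* (0.66, SE 0.220, limma adjusted p = 0.0367). Of 6 kidney tubule genes, 2 were called higher, *Kap* (2.34, SE 0.710, limma adjusted p = 0.0241) and *Slc34a1* (2.05, SE 0.526, limma adjusted p = 0.00970), and of 4 tested neutrophil genes 2, *S100a8* (1.70, SE 0.416, limma adjusted p = 0.00727) and *Csf3r* (0.42, SE 0.141, limma adjusted p = 0.0387). Called lower were 1 of 4 peritoneal macrophage genes, *Gata6* (-0.50, SE 0.178, limma adjusted p = 0.0497), 1 of 5 mesothelial genes, *Wt1* (-0.81, SE 0.222, limma adjusted p = 0.0136), 1 of 5 skeletal muscle genes, *Myh4* (-0.83, SE 0.288, limma adjusted p = 0.0451), and 1 of 5 dendritic cell genes, *Zbtb46* (-0.27, SE 0.0841, limma adjusted p = 0.0298). edgeR called 1 monocyte, 2 kidney, 1 neutrophil, 1 mesothelial and 1 dendritic cell gene and 0 of the peritoneal macrophage and muscle genes. Over all libraries, summed levels ran from 49.4 to 516 for the monocyte list (most abundant *Ccr2*), 25.1 to 469 for the kidney list (most abundant *Lrp2*, with *Slc12a1* at 0 in 16 libraries), 3.29 to 43.4 for neutrophils (*S100a8*), 21.0 to 116 for peritoneal macrophages (*Gata6*), 107 to 1780 for mesothelium (*Upk3b*), 16.5 to 451 for muscle (*Acta1*, with *Myh4* at 0 in 18) and 18.2 to 37.5 for dendritic cells (*Zbtb46*). The part of these lists in the diet differences of the members was not tested.

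Kupffer cells, the macrophages of liver, express general macrophage genes too. Of 4 Kupffer cell genes, 1 was called higher on the 60% HFD than on ND, *Clec4f* (1.65, SE 0.492, limma adjusted p = 0.0218). *Cd5l* was the most abundant, at 1.06 to 36.4 normalized CPM, and *Clec4f* was at 0 in 6 libraries. In ND mice, the Kupffer cell sum was 8.05, 2.50 and 4.80 in unligatured WT, 16.5, 23.6 and 12.1 in ligatured WT, 7.45, 24.9 and 62.7 in unligatured CCL19-KI, and 40.4, 5.83 and 7.84 in ligatured CCL19-KI mice. With the 40% HFD, this sum was 72.8, 24.0 and 71.2 in unligatured WT, 23.0, 36.4 and 39.9 in ligatured WT, 23.6, 53.8 and 40.2 in unligatured CCL19-KI, and 20.0, 67.7 and 8.33 in ligatured CCL19-KI mice. With the 60% HFD, this sum was 29.2, 53.2 and 87.9 in unligatured WT, 25.6, 24.2 and 50.1 in ligatured WT, 16.4, 14.4 and 3.88 in unligatured CCL19-KI, and 41.6, 39.1 and 13.0 in ligatured CCL19-KI mice. Medians were 10.1 on ND, 38.1 on the 40% HFD and 27.4 on the 60% HFD. The part of these cells in the diet differences of *Cd68*, *Adgre1*, *Cd163*, *Lyve1* and *Mertk* was not tested.

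*Lyve1* is also a gene of endothelium, and 2 endothelial marker lists were read beside it. Of 6 lymphatic endothelial genes (*Prox1*, *Flt4*, *Pdpn*, *Mmrn1*, *Reln* and *Ccl21a*), limma and edgeR called 0 for the 60% HFD against ND, with 1 at an unadjusted p below 0.05, and the list median was 0.07. Their summed level had medians of 178 on ND, 174 on the 40% HFD and 155 on the 60% HFD, with *Pdpn* the most abundant and *Ccl21a* at 0 in 1 library. With this list as a covariate, chosen after seeing the data, 5 members were called for the 60% HFD against ND, *Lyve1* among them. One gene of that list, *Prox1*, which hepatocytes also express, was called between genotypes in the 2 settings where all 8 hepatocyte genes were, and in the same direction (4.08 in unligatured ND mice and -3.91 in unligatured mice on the 60% HFD). Of 4 genes of liver sinusoidal endothelium, 1 was called higher, *Stab2* (1.17, SE 0.381, limma adjusted p = 0.0334). The sum of these 4 had medians of 5.63 on ND, 33.7 on the 40% HFD and 20.6 on the 60% HFD, ran from 2.76 to 67.4 over all libraries, and had no gene at 0. Over the 36 libraries, r of *Lyve1* with the lymphatic list was -0.09. Apart from that lymphatic covariate, the part of endothelium in the *Lyve1* values was not tested.

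**Figure D5:**
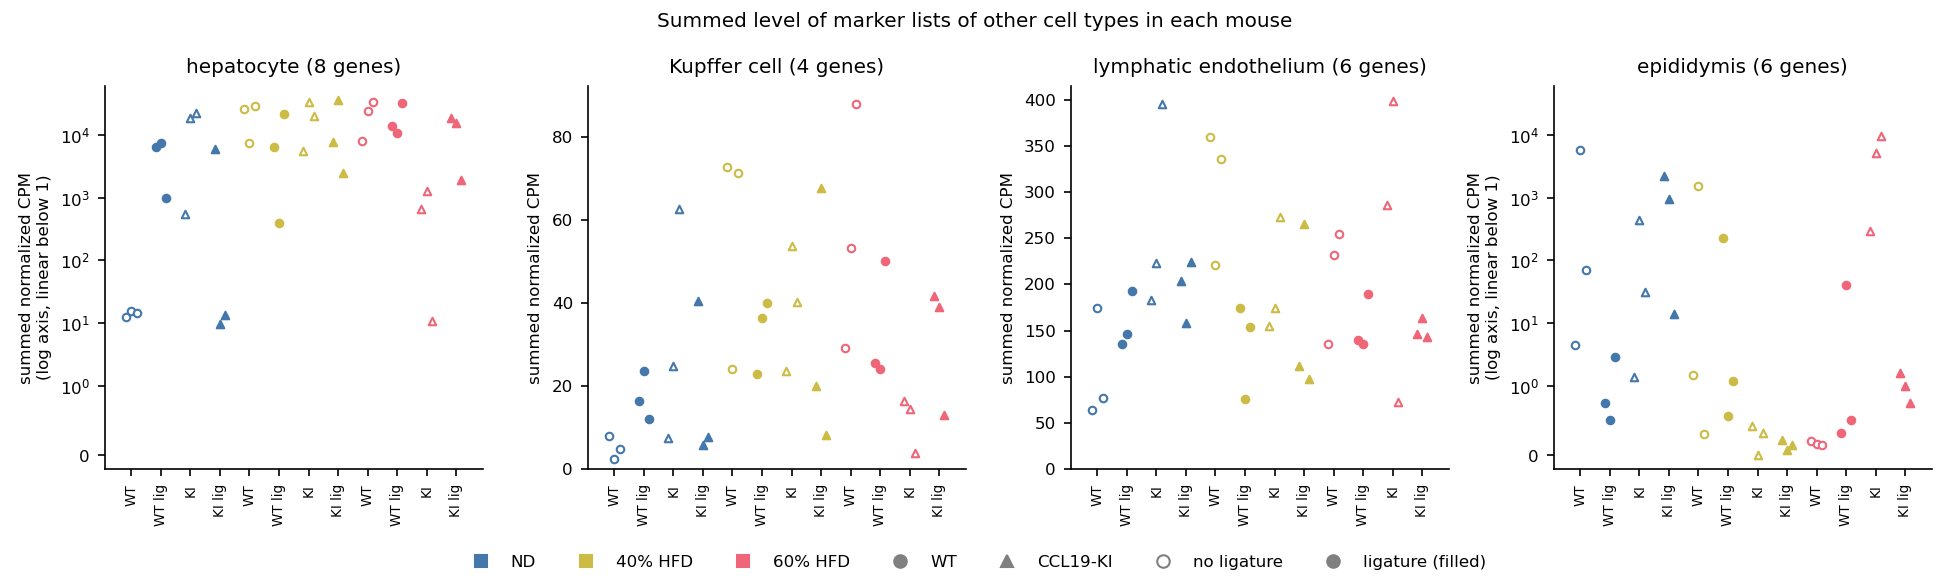
Summed normalized CPM of marker lists of hepatocytes (8 genes), Kupffer cells (4), lymphatic endothelium (6) and epididymis (6) in each mouse, the first and last on a logarithmic axis that is linear below 1. The hepatocyte sum ran from 9.58 to 36100 and was 12.6 to 15.6 in the 3 unligatured WT mice on ND, and the epididymis sum reached 9550 in unligatured CCL19-KI mice on the 60% HFD.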

How the data were processed

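Total RNA from the eWAT of 36 mice was sequenced. The authors trimmed reads with Trimmomatic 0.38, mapped them to transcripts with Bowtie2 within RSEM 1.3.0 and normalized gene counts with edgeR, and the deposited signal values are normalized CPM. The genome build is mm10 in the study's methods and GRCm39 in the submitters' processing notes, so positions and exon lengths were taken by gene ID from GENCODE M21 (GRCm38) and describe genes, not alignments. Of 24750 gene IDs, 24626 had a symbol.

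Values were analysed as log2(normalized CPM + 1), which understates changes of low genes. Genes that reached 1 normalized CPM in 3 or more libraries (17852) entered 1 limma fit of 12 group means over 36 libraries, with an intensity trend, Benjamini-Hochberg adjustment over all genes tested and calls at adjusted p below 0.05. Diet, genotype and ligature effects are means over the settings of the other factors. The study ran edgeR on raw counts, whereas limma was used here because normalized values are what was analysed. Read counts were recovered by dividing each column by its smallest step, and 100% of values came out whole within a tolerance of 0.01. The edgeR quasi-likelihood test on them called 3222 genes for the 60% HFD against ND, 1905 for the 40% HFD against ND and 95 for the ligature. The fitting code was tested on simulated data. No library pair of a group agreed within counting noise.

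Alternatives were other pseudocounts (0.1 and 5), no filter or a mean of at least 5, a block for replicate number, scaling by median-of-ratios size factors, edgeR, only the groups a comparison uses, the study's criteria (unadjusted p up to 0.05 with a ratio from 1.5 upward or from 0.67 downward), a hepatocyte covariate and leaving out each mouse in turn. Covariates from epididymis and lymphatic endothelium markers were chosen after seeing the data. The members and marker lists were chosen with earlier results of these data known. Besides the members, up to 4 called genes with the largest change per macrophage list were named. The 3 genes outside the members with the highest r to each member were named too. The ligands of member receptors, *Maf* and the markers of other cell types stand outside that rule and were named after their values were seen. The signalling list was planned with 1 more gene, which is not reported here, and its counts were redone on the rest. R 4.3.3, limma 3.58.1, edgeR 4.0.16, Python 3.11.15, numpy 2.4.6, pandas 2.3.3 and matplotlib 3.10.9 were used.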

Additional observations from a re-analysis of the deposited data

Results flagged for a closer look

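The genotype effect on the 60% HFD differed from that on ND for 85 genes by limma's test of the difference itself, and 0 of the 10 macrophage genes were among them. This count ran from 7 to 2022 over the fits that left out 1 mouse, and was 1 with the hepatocyte covariate and 1080 by edgeR.

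For *Lyve1*, CCL19-KI and WT mice were apart in opposite directions in 2 settings. In ligatured ND mice all 3 CCL19-KI values (115, 122 and 124) were below all 3 WT values (127, 130 and 160), a log2 difference of -0.20 (SE 0.555, limma adjusted p = 0.942). In unligatured mice on the 60% HFD all 3 CCL19-KI values (104, 90.3 and 39.3) were above all 3 WT values (25.6, 34.2 and 39.2), a log2 difference of 1.12. The difference between these 2 settings was not tested, while the genotype effect on the 60% HFD minus that on ND, averaged over ligature, was 1.01 (SE 0.555, limma adjusted p = 0.278) and not called, and neither setting was called by itself. Among all genes tested, 18.9% were apart in the first setting and 30.7% in the second, and 2783 of 17852 (15.6%) were apart in opposite directions in 2 of the 6 settings, beside 1 of 10 members.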

How the results depend on the processing

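Over the 17 fold changes of named members that were refitted, 768 of 810 results kept their direction and their side of the threshold, 30 newly passed and 12 no longer passed, and none reversed. Where a value below differs from the report, the cause was not tested. The filter of a mean of at least 5 left fewer genes tested, and *Timd4* is not among them. Depth limits *Timd4* most, at 26 to 133 reads a library.

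Members called changed under few settings. For the 60% HFD against ND it was 1 with the hepatocyte covariate (beside 1854 genes), in place of 5. It was 4 by edgeR (beside 18.0% of genes) and by the study's criteria (9.88%). For the 60% against the 40% HFD it was 1 with only the groups used (beside 274 genes) and 2 under the study's criteria (beside 406 genes, 2.27%), in place of 0. For the ligature it was 1 by edgeR (beside 95 genes, 0.532%), 2 under the study's criteria (228 genes, 1.28%) and 2 with the hepatocyte covariate (240 genes), in place of 0. For CCL19-KI against WT in unligatured ND mice it was 2 under the study's criteria, in place of 0, beside 4157 of the 17852 genes (23.3%). Leaving out 1 mouse gave 3 to 6 members for the 60% HFD against ND, 0 to 1 for the 60% against the 40% HFD, 0 to 2 for the ligature and 0 to 3 for CCL19-KI against WT in unligatured ND mice, and 0 in the other 9 comparisons.

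Replicates of different groups shared only a number. Over 198 pairs of groups with the same number the mean r of deviations was -0.00825 (from -0.663 to 0.71, 73 over 0.1), beside 0.00436 for other numbers, and 10 of 36 libraries were closest to their own number. With the replicate block, *Cd68* was called, giving 1 member, for the 60% against the 40% HFD (adjusted p = 0.0363, limma) and for CCL19-KI against WT in unligatured ND mice (0.0426). Genes called for CCL19-KI against WT in unligatured mice on the 40% HFD went from 1 to 0 with the block, and it moved no other count of genes by over 1.5 times.

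Counts of all genes called moved more, and are given by setting against the main counts in the report. Under the study's criteria they were 1764 for the 60% HFD against ND, 406 for the 60% against the 40% HFD and 228 for the ligature. For CCL19-KI against WT these criteria gave 1506, 224 and 252 in ligatured mice on ND, the 40% and the 60% HFD, 482 in unligatured mice on the 40% HFD, and 1107 and 2578 for the genotype effect on the 40% and the 60% HFD minus ND. With the hepatocyte covariate, counts were 1854 for the 60% HFD against ND, 336 for the 40% HFD against ND and 240 for the ligature. In the genotype comparisons this covariate gave 93 and 4 in ligatured mice on ND and the 60% HFD, 153 and 61 in unligatured mice on ND and the 60% HFD, and 1 for the genotype effect on the 60% HFD minus ND. The epididymis covariate, chosen after seeing the data, gave 765 for the 40% HFD against ND, 222 for the 60% against the 40% HFD and 198 for the ligature. For CCL19-KI against WT it gave 118, 9 and 6 in ligatured mice on ND, the 40% and the 60% HFD, 6 and 846 in unligatured mice on the 40% and the 60% HFD, and 167 for the genotype effect on the 60% HFD minus ND. The lymphatic endothelium covariate, also chosen after seeing the data, gave 5 in ligatured mice on the 40% HFD, 1629 and 4 in unligatured mice on ND and the 40% HFD, and 54 for the genotype effect on the 60% HFD minus ND.

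With only the groups a comparison uses, counts were 274 for the 60% against the 40% HFD. For CCL19-KI against WT they were 370, 7 and 13 in ligatured mice on ND, the 40% and the 60% HFD, 1232, 0 and 687 in unligatured mice in the same order, and 16 for the genotype effect on the 60% HFD minus ND. For CCL19-KI against WT over all settings and for the ligature this was the same fit, and no value is given. With a mean of at least 5 there were 81 for the 60% against the 40% HFD, 49 for CCL19-KI against WT, 13, 1 and 1 in ligatured mice on the 3 diets, 1956 in unligatured mice on the 60% HFD, and 187 for the genotype effect on the 60% HFD minus ND. edgeR gave 95 for the ligature, 0 and 0 in ligatured mice on the 40% and the 60% HFD, 0 in unligatured mice on the 40% HFD and 1080 for the genotype effect on the 60% HFD minus ND. A pseudocount of 0.1 gave 1 in ligatured and 0 in unligatured mice on the 40% HFD and 155 for the genotype effect on the 60% HFD minus ND. A pseudocount of 5 gave 5 in ligatured mice on the 40% HFD, 5 in ligatured mice on the 60% HFD and 0 in unligatured mice on the 40% HFD. Without a filter there were 0 in unligatured mice on the 40% HFD and 53 for the genotype effect on the 60% HFD minus ND.

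Leaving out 1 mouse gave 2412 to 4103 genes for the 60% HFD against ND, 845 to 2387 for the 40% HFD against ND, 46 to 289 for the 60% against the 40% HFD, 53 to 551 for CCL19-KI against WT and 22 to 272 for the ligature. For CCL19-KI against WT within ligatured mice it gave 61 to 600 on ND, 0 to 9 on the 40% HFD and 0 to 6 on the 60% HFD. Within unligatured mice it gave 277 to 4829 on ND, 0 to 6 on the 40% HFD and 535 to 3331 on the 60% HFD. The genotype effect minus ND gave 0 to 528 on the 40% HFD and 7 to 2022 on the 60% HFD. A group left with 2 mice is assumed to vary like the others.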
